A study of Mus musculus with 8 samples.

Results

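Visceral endoderm and its later form in the yolk sac wall take up nutrients for the mouse embryo and secrete plasma proteins. A list of 31 genes of this tissue was followed in RNA of single mouse embryos, from dissected hearts and pharyngeal mesoderm, and 29 of the 31 symbols were found among 20701 gene symbols. Where a symbol had several transcript entries, the entry with the highest summed count was taken. Spink3, a secreted protease inhibitor, and Rhox5, a homeobox gene, were not found under those symbols. The entry listed as Spink1, for which Spink3 is a RefSeq synonym, is described apart and was not counted as a member.

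There were 4 Isl1-/- and 4 wild-type embryos of strain C57BL/6 at E8.75, the stage of 6 somites, with 1 embryo per library. The dissection was a tissue block, so a gene's level was an average over all its cells, and fewer cells of a type and less RNA per cell cannot be told apart. The labels name an Isl1-/- genotype without a Cre driver; the Isl1 protein is a LIM-homeodomain factor of cardiac progenitors. Litters and dissection days were not given in the sources used here. Library totals ran from 18916452 to 26153039 counts, and the label of knockout embryo 2 read total RNA where those of the 7 others read polyA RNA. Isl1 was at 9.72 to 26.9 CPM (counts per 1e6 counts of the library) in wild-type and 1.78 to 2.40 CPM in knockout embryos, and the ranges did not overlap. The defining muscle genes of the labelled tissue were present, with a summed level of 2828 to 4192 CPM for 8 heart muscle genes in wild-type embryos.

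Visceral endoderm lies against the embryo proper during gastrulation, and part of it is later found within the gut tube, whereas the yolk sac endoderm stays outside the embryo. Both forms package lipid with apolipoproteins, export plasma proteins such as alpha-fetoprotein and transthyretin, and draw maternal protein from the surrounding fluid through the receptors cubilin and megalin. HNF4A, FOXA and GATA factors regulate many of these genes in endoderm and liver.

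The start regions of the members are shown first because these genes moved together over the embryos, as described further on. RefSeq start sites on GRCm38.p6 were matched for 24 of the 29 genes. In the 250 bases before the start, the letters GTTAAT, a motif common in liver promoters, stood on either strand in 8 of 24 members (33.3%), beside 5.12% of 10861 tested genes with a start region and 7.49% of all 27025 genes. Those 8 were Afp, Alb, Fga, Fgb, Apoc2, Apoe, Dab2 and Hnf4a. The TATA box letters TATAAA, read on the gene's strand, also stood in 8 of 24 members, beside 4.75% of tested genes. The FOXA letters TGTTTAC were in 2 members (8.33%, tested genes 2.73%), the GATA letters AGATAA in 1 (4.17%, tested genes 7.4%) and the HNF4 letters CAAAGTCCA in 0 (tested genes 0.442%), all on either strand. The motifs share no overlapping match in the stretches below, which give the 150 bases before the start for 4 secreted products and the regulator Hnf4a, all with a motif, and for the receptors Cubn and Lrp2, which have none of these letters. Roles did not divide in this way over all members. The secreted Apoa1, Apoa4, Apom and Fgg held none of these letters in the 250 bases, and the adaptor Dab2 held GTTAAT. Capitals mark the letters of these motifs.
Afp, chr5:90490564-90490713, plus strand: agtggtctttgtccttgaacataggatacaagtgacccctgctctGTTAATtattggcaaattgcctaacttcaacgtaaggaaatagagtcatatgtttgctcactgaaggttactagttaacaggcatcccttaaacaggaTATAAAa
Alb, chr5:90460720-90460869, plus strand: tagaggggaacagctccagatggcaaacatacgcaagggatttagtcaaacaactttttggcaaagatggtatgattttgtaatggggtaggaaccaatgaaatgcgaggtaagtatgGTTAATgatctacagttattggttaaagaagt
Fga, chr3:83026003-83026152, plus strand: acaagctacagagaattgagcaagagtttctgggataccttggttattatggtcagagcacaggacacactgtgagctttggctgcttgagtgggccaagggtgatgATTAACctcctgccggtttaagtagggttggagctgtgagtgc
Fgb, chr3:83049864-83050013, minus strand: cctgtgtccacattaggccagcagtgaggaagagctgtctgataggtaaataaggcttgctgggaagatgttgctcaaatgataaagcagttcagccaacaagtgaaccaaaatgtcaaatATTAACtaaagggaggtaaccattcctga
Hnf4a, first start, chr2:163506707-163506856, plus strand: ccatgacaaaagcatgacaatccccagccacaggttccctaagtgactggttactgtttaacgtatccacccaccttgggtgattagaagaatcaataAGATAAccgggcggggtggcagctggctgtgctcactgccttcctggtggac
Hnf4a, second start, chr2:163547005-163547154, plus strand: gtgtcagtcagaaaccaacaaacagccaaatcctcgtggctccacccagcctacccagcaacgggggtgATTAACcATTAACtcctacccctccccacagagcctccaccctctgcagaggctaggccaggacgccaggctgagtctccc
Cubn, chr2:13491877-13492026, minus strand: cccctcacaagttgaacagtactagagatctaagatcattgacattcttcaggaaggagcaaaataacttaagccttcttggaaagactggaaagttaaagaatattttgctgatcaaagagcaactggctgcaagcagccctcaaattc
Lrp2, chr2:69586030-69586179, minus strand: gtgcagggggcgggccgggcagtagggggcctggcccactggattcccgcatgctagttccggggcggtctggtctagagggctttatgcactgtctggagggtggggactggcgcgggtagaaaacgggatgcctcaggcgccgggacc
Counted from the start site, the letters GTTAAT began at -105 in Afp, -32 in Alb, -43 in Fga and -29 in Fgb. The second start of Hnf4a held them at -81 and -74, and the first held the GATA letters at -52. A match gives the letters only and was not tested as a binding site. Alb, which holds the letters GTTAAT as Afp does, was nearly silent in these libraries.

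The endoderm genes took a share of each library's counts that differed 8.07-fold between embryos. Wild-type 1 to 4 had 0.252%, 0.407%, 0.685% and 0.128%, and knockout 1 to 4 had 0.119%, 0.963%, 0.698% and 0.157%. The mean was 0.368% ± 0.240 (SD, n = 4) in wild-type and 0.484% ± 0.414 (SD, n = 4) in knockout embryos. High and low embryos stood in both genotypes, and the wild-type range lay within the knockout range. Apob, the structural protein of large lipoprotein particles, and Cubn together took 22.7% to 45.6% of the members' reads. The 3 embryos with the smallest share also had the smallest part on these 2 genes, 22.7% to 29.2%.

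**Figure D1:**
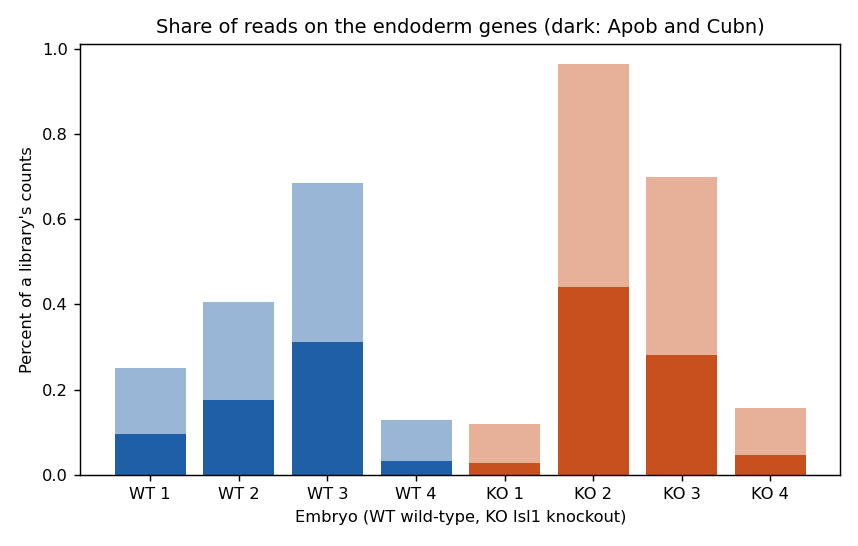
Bars give the percent of each library's counts on the 29 endoderm genes, with Apob and Cubn in the dark part and the other genes in the light part, for 4 wild-type and 4 Isl1 knockout embryos. Knockout embryo 2 (0.963%) and knockout embryo 3 (0.698%) were highest, wild-type embryo 3 (0.685%) came next, and knockout embryo 1 (0.119%) was lowest.

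Levels per transcript length are given as RPKM, here the CPM per kilobase of transcript and not the deposited RPKM. The most abundant members were Apoe, a lipid carrier, at a mean of 231 RPKM, and Apoa1, the main protein of high-density lipoprotein, at 211 RPKM. Rbp4, the retinol carrier, was at 170 RPKM. Afp followed at 149 RPKM and Ttr, which carries thyroid hormone and retinol-binding protein, at 127 RPKM. At the low end stood Fga at 5.67 RPKM and the forkhead factor Foxa3 at 1.04 RPKM. Alb, the adult plasma protein and the chromosome neighbour of Afp, had 0 to 4 counts per library and was not tested. Its 14.1 kb gap to Afp on chromosome 5 (mm9, Alb 90889915 to 90905629, Afp 90919740 to 90937933) thus separated a gene at 0 to 0.166 CPM from one at 37.1 to 839.8 CPM. The 28 other members passed the filter on low counts.

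Afp (NM_007423), the fetal counterpart of albumin, set the scale for the variation. Wild-type 1 to 4 had 138.2, 257.0, 390.1 and 47.7 CPM, and knockout 1 to 4 had 37.1, 839.8, 683.6 and 71.8 CPM, a 22.6-fold range. Values of other genes are given in the same order. From lowest to highest the order was knockout 1, wild-type 4, knockout 4, wild-type 1, 2 and 3, knockout 3 and knockout 2, and the largest step between neighbours, 0.94 on the log2 scale, lay between knockout 4 and wild-type 1. Whether the 3 low embryos form a separate cluster was not tested, and the correlations below are over all 8 embryos. Among the 28 tested members, 28 had the same 3 highest embryos as Afp (knockout 2, knockout 3 and wild-type 3) and 26 also had its 3 lowest (knockout 1, wild-type 4 and knockout 4). Of all 14075 tested genes, 394 had both.

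**Figure D2:**
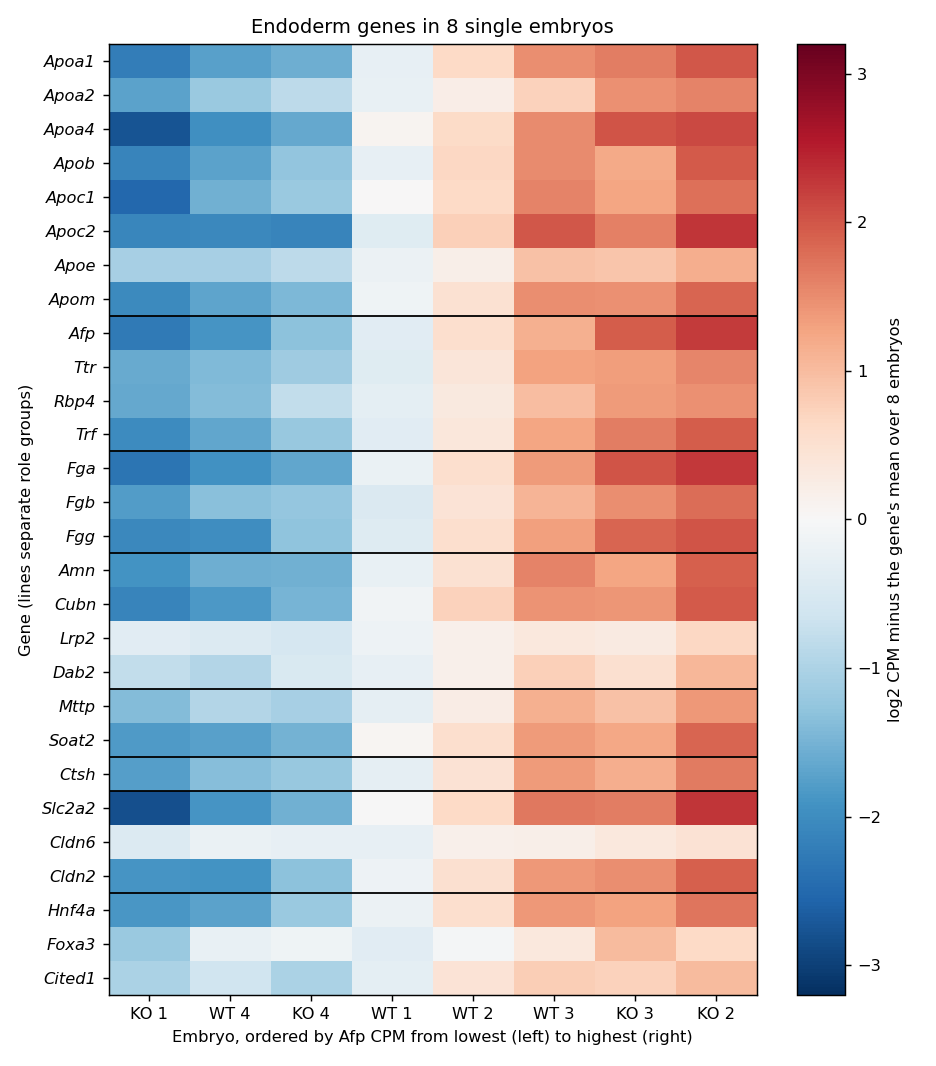
Heat map of 28 endoderm genes (rows, lines separate the role groups) in 8 embryos (columns, ordered by the CPM of Afp), with colour for the log2 CPM minus the gene's own mean. Nearly every row passes from blue in knockout 1, wild-type 4 and knockout 4 to red in wild-type 3, knockout 3 and knockout 2. Cldn6 and Lrp2, the 2 members with a range under 3-fold, stay palest.

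The members varied far more than most genes. The highest embryo exceeded the lowest by a median of 13.5-fold over the 28 members, from 1.87-fold for Cldn6 to 34.6-fold for Slc2a2, beside a median of 1.44-fold over all tested genes. A range over 10-fold was reached by 18 members and by 1.61% of all genes. Of the 53 genes with a mean of at least 10 CPM and such a range, 17 were members. With genotype means removed, the SD of log2 CPM over the embryos had a median of 1.59 in the members and 0.165 in all genes, and 19 members were among the 1% of genes with the largest SD. Counting error was small beside this, since each member's SD was 3.06 to 121 times the SD that its counts alone would give.

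The members also moved tightly together. Pearson's r between log2 CPM of a member and of Afp had a median of 0.985 over 27 members and -0.007 over all genes. In an exact two-sided permutation test over all orders of the 8 embryos, adjusted over all 14074 other genes, 25 of the 27 members were called, all positive, where 2.22% of all genes were called positive and 0.0284% negative. By Spearman's rho 19 of the 27 were called, but the share of all genes called by rho was not counted. Without the 2 embryos farthest from the median of Afp, knockout 1 and knockout 2, the median r was 0.977 and the lowest 0.823, and with genotype means removed the median was 0.992. The calls rested on all 8 embryos more than the correlations did. Leaving out knockout embryo 2 left 0 calls at a median r of 0.980, and 9, 8 and 14 members were called without wild-type 1, wild-type 2 and knockout 4. Positive calls over all genes fell too, from 313 with 8 embryos to 0, 73, 57 and 128 in the same order. A set of 7 embryos allows fewer orders, so these drops are not particular to the members. All 27 had an unadjusted exact permutation p under 0.05 in each of these sets of 7 embryos. Over the 378 pairs among the 28 members, with genotype means removed, the median r was 0.990, the lowest was 0.733, and 352 pairs exceeded 0.9, beside a median of -0.001 over pairs of all genes.

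Correlation and amplitude differed between members. The slope of log2 CPM on log2 CPM of Afp, which is 1 for a gene that changes by the same fold as Afp, was over 0.8 in 15 members and under 0.5 in 5. The role groups are taken in turn below.

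**Figure D3:**
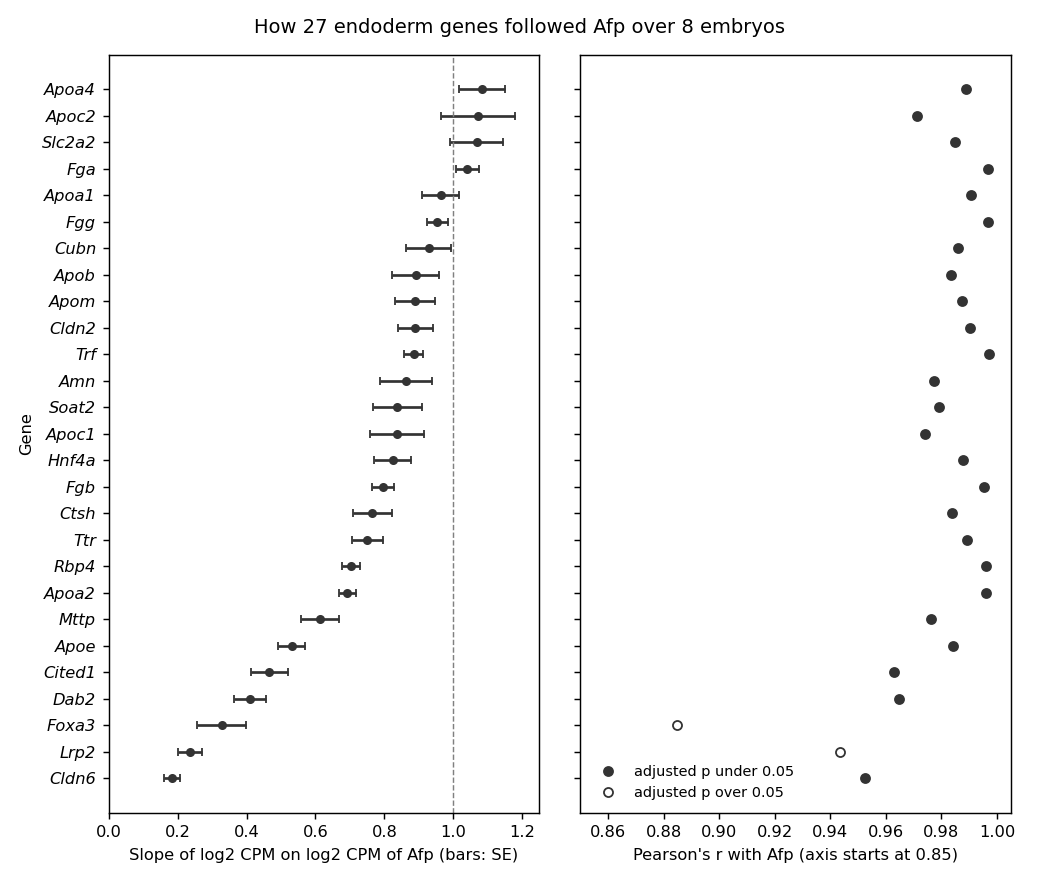
For 27 endoderm genes over 8 embryos, the left panel gives the slope of log2 CPM on log2 CPM of Afp with its SE and the right panel Pearson's r with Afp, open where the adjusted p exceeded 0.05. Slopes run from 0.18 (Cldn6) to 1.08 (Apoa4), while r stays at 0.943 or above in every gene but Foxa3 (0.885).

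All 8 lipoprotein components were called with Afp, with r from 0.971 to 0.996. Apob (NM_009693) measured 590.3, 1135, 2012 and 216.0 CPM in wild-type and 165.0, 2776, 1661 and 296.4 CPM in knockout embryos. Its r with Afp was 0.983 (adjusted exact permutation p = 0.019, rho 0.976). Apoa1 measured 105.1, 195.6, 354.5 and 37.6 CPM in wild-type and 27.02, 502.7, 394.0 and 42.6 CPM in knockout embryos, an 18.6-fold range. In both genes the 3 high and the 3 low embryos came from both genotypes. Apoa4, a lipoprotein component known from the gut, had the steepest slope, 1.08 ± 0.07 (SE, n = 8), and a 29.4-fold range from 3.63 to 106.7 CPM. Apoc2, the activator of lipoprotein lipase, had the largest SD of the members, 2.06 on the log2 scale, and ran from 6.76 to 142.9 CPM. Apoe differed in amplitude, with a 4.68-fold range from 123.2 to 576.4 CPM and a slope of 0.53 ± 0.04 (SE, n = 8) at an r of 0.984. Apoa2, Apom and Apoc1 had slopes of 0.69, 0.89 and 0.84. On chromosome 9 (mm9, 46036663 to 46051542), Apoa1 and Apoa4, with Apoc3 between them, kept a ratio per length that varied 1.87-fold over the embryos. On chromosome 7 (mm9, 20256928 to 20284515) the neighbours Apoc2, Apoc1 and Apoe had slopes of 1.07, 0.84 and 0.53, so genes of 1 cluster differed in amplitude.

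The 3 tested plasma carriers besides Afp were called, and Trf, Rbp4 and Ttr each ranked the embryos exactly as Afp did. Trf, transferrin, which carries iron, had the highest r of all members, 0.997 (adjusted exact permutation p = 0.0103), and rose from 9.82 CPM in knockout 1 to 150.5 CPM in knockout 2. Ttr measured 84.8, 144.5, 270.1 and 41.7 CPM in wild-type and 36.5, 327.3, 282.5 and 50.4 CPM in knockout embryos. Rbp4 measured 94.1, 147.0, 234.1 and 44.6 CPM in wild-type and 37.6, 325.6, 299.7 and 68.5 CPM in knockout embryos. Both spread over about the same range, 8.96-fold and 8.66-fold, and their ratio per length varied 1.57-fold. The ratio of Ttr to Afp fell from 1.68 in knockout 1 to 0.664 in knockout 2, and its slope on Afp was 0.75.

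The 3 fibrinogen chains, which assemble into the clotting protein and lie side by side on chromosome 3 (mm9, 82811781 to 82853725), all ranked the 8 embryos as Afp did. Fga measured 9.01, 15.3, 26.97 and 2.74 CPM in wild-type and 2.09, 50.4, 42.2 and 3.33 CPM in knockout embryos. Fgg ran from 1.86 to 31.3 CPM and Fgb from 5.10 to 61.3 CPM. The chains were not in a fixed proportion, since the slope was 1.04 for Fga, 0.95 for Fgg and 0.80 for Fgb. Per length, the ratio of Fga to Fgb was 0.199 in wild-type 4 and 0.432 in knockout 3, while that of Fga to Fgg varied 1.51-fold.

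The uptake machinery split by amplitude. Cubn (NM_001081084), the receptor for vitamin B12 and apolipoproteins, measured 389.1, 694.3, 1139 and 117.0 CPM in wild-type and 96.7, 1616, 1118 and 148.7 CPM in knockout embryos. Amn, amnionless, which anchors cubilin in the membrane, ran from 2.78 to 39.8 CPM and kept the narrowest range of the ratios examined, 0.142 to 0.202 of Cubn per length, although each gene spanned more than 14-fold. Lrp2, megalin, the large endocytic receptor that works with cubilin, measured 281.9, 356.2, 401.3 and 235.1 CPM in wild-type and 248.5, 505.4, 389.3 and 219.6 CPM in knockout embryos. It thus spanned only 2.30-fold, and its level per length was 0.229 of Cubn in knockout 2 but 1.88 in knockout 1. Lrp2 had r = 0.943 with Afp and missed the threshold (adjusted exact permutation p = 0.0535). Dab2, the adaptor that links these receptors to clathrin, was intermediate, from 167.0 to 672.2 CPM with a slope of 0.41 ± 0.05 (SE, n = 8).

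**Figure D4:**
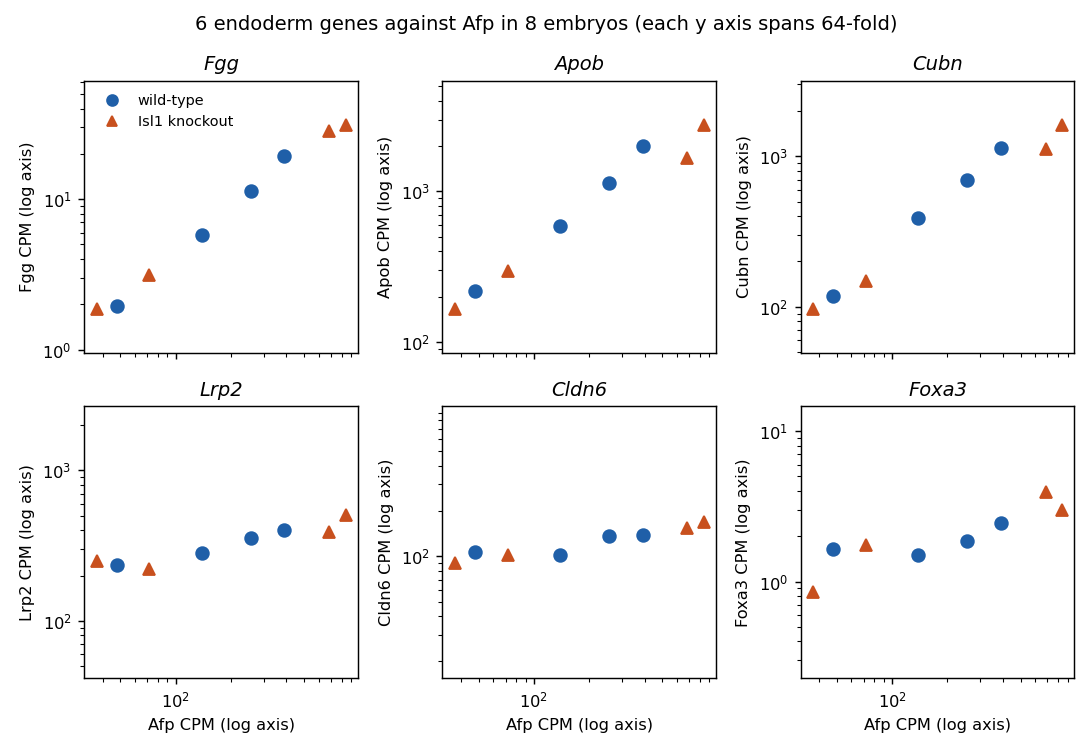
CPM of 6 endoderm genes against CPM of Afp in 4 wild-type (circles) and 4 Isl1 knockout embryos (triangles), both axes logarithmic and every y axis spanning the same fold. Fgg, Apob and Cubn climb with Afp, whereas Lrp2 and Cldn6 rise little, from 219.6 to 505.4 and 90.7 to 169.3 CPM. Foxa3, at 0.8505 to 3.92 CPM, spans 4.61-fold.

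Among the enzymes, Mttp, which loads lipid onto apolipoprotein B, ran from 27.02 to 186.4 CPM, and Soat2, which esterifies cholesterol, from 2.90 to 36.8 CPM. Both were called with Afp (r 0.976 and 0.979). Soat2 stayed within a 1.47-fold range relative to Apob, and Mttp within 2.54-fold. Ctsh, a lysosomal protease, ran from 10.7 to 114.7 CPM with r = 0.984.

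Slc2a2, the glucose transporter GLUT2, had the widest range of all members. It measured 17.1, 26.7, 55.0 and 4.68 CPM in wild-type and 2.44, 84.2, 53.6 and 5.97 CPM in knockout embryos. The tight junction proteins Cldn2 and Cldn6 differed from each other. Cldn2 ran from 4.64 to 66.7 CPM, and Cldn6 measured 101.4, 137.2, 138.7 and 106.0 CPM in wild-type and 90.7, 169.3, 155.0 and 101.6 CPM in knockout embryos. Both were called with Afp (r 0.990 and 0.952), but the ratio of Cldn6 to Cldn2 per length ran from 5.18 to 46.6. Cldn6 is known from many embryonic epithelia.

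Of the regulators, Hnf4a, the nuclear receptor of endoderm and liver, followed Afp closely (r = 0.988, adjusted exact permutation p = 0.0153). It measured 17.4, 29.0, 52.0 and 6.12 CPM in wild-type and 5.45, 65.8, 49.0 and 8.76 CPM in knockout embryos. Cited1, a transcriptional coactivator, followed with a shallower slope, 0.47 ± 0.05 (SE, n = 8), from 8.81 to 35.9 CPM. Foxa3 was low, 0.8505 to 3.92 CPM, and was the least correlated member (r = 0.885, adjusted exact permutation p = 0.0691). It was also the member nearest to its counting error, with an SD 3.06 times that of its counts. The entry listed as Spink1 measured 7.57 to 53.4 CPM and had r = 0.967 with Afp.

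No member was called between the genotypes. In edgeR's quasi-likelihood test 0 of 28 members passed an adjusted p of 0.05, where 0.973% of all genes did, and 0 of 28 had an unadjusted p under 0.05, where 17.4% of all genes did. DESeq2 also called 0 of 28. For 0 of 28 members were the ranges of the 2 genotypes separate, where this held for 10.3% of all genes. The log2 fold change, knockout minus wild-type, was above 0 in all 28, with a median of 0.35 and a range of 0.06 to 0.97, but the lowest adjusted p was 0.625. Afp had a log2 fold change of 0.97 ± 0.92 (SE, n = 4 each), Apob of 0.31 ± 0.86, Cubn of 0.35 ± 0.88, Lrp2 of 0.10 ± 0.26 and Cldn6 of 0.10 ± 0.20. The median SE was 0.816, beside 0.116 over all genes. For 22 members the 95% interval held a doubling as well as a halving, so a difference of that size was not detectable with 4 embryos a group. The shared sign is not stable, since leaving out knockout embryo 2 put 19 of 28 members below 0, with a median of -0.19, and leaving out wild-type 3 raised the median to 0.95.

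**Figure D5:**
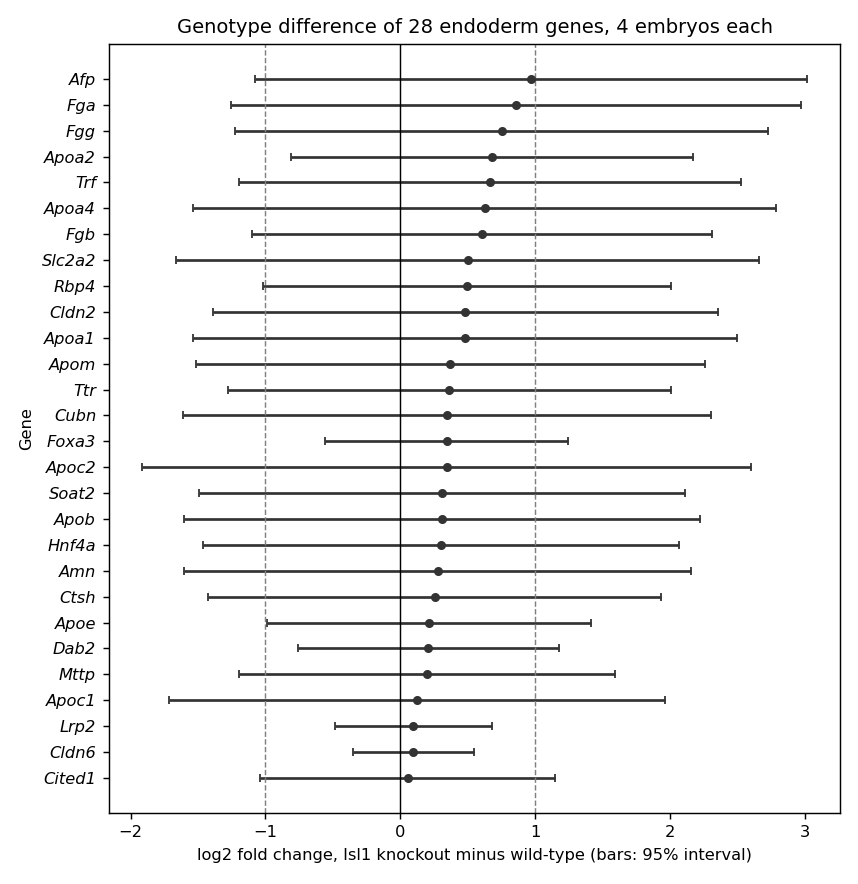
Log2 fold change, Isl1 knockout minus wild-type, of 28 endoderm genes with its 95% interval from edgeR (n = 4 embryos each), dashed lines at a change of 1 in either direction. Every interval holds 0, and those of Lrp2 and Cldn6 are the narrowest.

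Across all genes, the direction of largest variance followed nearly the same order of embryos as Afp. The first principal component of log2 CPM of the tested genes, not scaled by gene, held 39.2% of the variance. Its score had r = 0.949 and rho = 0.976 with Afp over the 8 embryos, and r = 0.907 without the 2 farthest. Its widest gap, from -26.3 in knockout 4 to -0.544 in wild-type 1, also set the 3 embryos lowest for Afp apart from the others. Afp and the other members are themselves among the genes of this component, 19 members being among the 1% of genes with the largest SD. The sign of the score was set by Afp. Its correlation with Afp is therefore not an independent result, and no p-value is given. A relation of Afp with library depth was not detectable (r = -0.361, exact permutation p = 0.379; rho = -0.548, exact permutation p = 0.171; r = -0.428 without the 2 farthest).

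Other endoderm genes were examined in the same way. Of 26 further secreted, uptake and lipid genes 21 were tested, and 15 were called with Afp, with a median r of 0.976, while 0 were called between genotypes. Vil1, a protein of microvilli (r 0.985), Ambp, a secreted plasma protein (r 0.984), and F2, prothrombin (r 0.983), were among them. Hpx and Vtn did not follow Afp (r -0.235 and 0.117). Of 9 further regulators 1 was called with Afp, the ligand gene Ihh (r = 0.949, rho = 1, adjusted exact permutation p = 0.00873), at 0.889 to 6.30 CPM. Gata4 and Gata6, which heart cells also express, did not follow Afp (r 0.155 and -0.120). Gata6 was the single gene of both lists called between genotypes, at 60.0 to 85.8 CPM in wild-type and 39.5 to 45.04 CPM in knockout embryos (edgeR log2 fold change -0.69 ± 0.12, SE, n = 4 each, adjusted p = 0.0278). Its call was lost without wild-type 1, without wild-type 4, without any 1 of the 4 knockout embryos and in a fit with the replicate number as a block.

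By r with Afp, 10 genes were the closest among non-members with a mean of at least 1 CPM, S100g being also in the list of secreted, uptake and lipid genes. Among them were Mvp, Spp2, Lyve1, Folr1, Timd2, S100g, Slc39a5, B4galnt2 and Serpinf2, and the 10 had r from 0.993 to 0.998 over the 8 embryos. Folr1, a folate receptor, ran from 2.36 to 34.9 CPM, and S100g, a calcium-binding protein, from 2.51 to 47.3 CPM.

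Markers of other tissues that a dissection could carry were set beside these results. Over all genes 2.22% were called positive with Afp, at a median r of -0.007. A count of 0 in lists this short therefore does not set a list apart from other genes. Of 12 primitive erythroid genes 0 were called with Afp (median r 0.194), with a summed level of 385.3 to 2459 CPM in wild-type and 1304 to 3249 CPM in knockout embryos. Wild-type 3, high for endoderm genes, was the lowest for these, and knockout 2 was the highest for both. Of 7 parietal endoderm genes 0 were called with Afp (median r 0.823, summed level 995.7 to 1389 CPM). Their r ran from 0.008 for Plat to 0.944 for Lamb1, which just missed the threshold (adjusted exact permutation p = 0.0514). Of 11 gut endoderm and epithelial genes 0 were called with Afp (median r 0.537, summed level 495.8 to 753.4 CPM, Foxa1 and Foxa2 being also in the regulator list), and Cdh1, Krt8 and Krt18, widely used epithelial markers, had r of 0.821, 0.878 and 0.836. Of 7 trophoblast genes 4 were tested and 0 called with Afp (median r 0.035, from -0.199 for Ascl2 to 0.905 for Plac1). Tpbpa was at 0 in all libraries. Plac1 was at 2.55 to 7.42 CPM, Krt7 at 15.0 to 41.7 CPM, Elf5 at 1.56 to 3.17 CPM and Ascl2 at 0.167 to 1.32 CPM. The 8 heart muscle genes had r from -0.270 to -0.021 with Afp, and 7 of the 8 were called lower in the knockout by edgeR. Of 6 pharyngeal mesoderm genes 5 were tested and 0 called with Afp. The Y-linked genes had reads in wild-type 4 and knockout 1, 3 and 4, so the 3 embryos lowest for Afp were male, as was knockout 3, the next to highest. The part of sex, litter, RNA selection or the line of dissection in the endoderm differences was not tested.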

How the data were processed

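RNA of pharyngeal mesoderm and hearts of 8 single embryos was sequenced. Per the labels and methods, the authors mapped reads to mm9 with STAR (introns 20 to 500000 bases) and counted them over exons of RefSeq transcripts, on both strands, so antisense genes cannot be told apart. Counts were deposited as raw reads of each transcript, without normalization. The deposited RPKM values were counts per kilobase, scaled to the total of all transcript entries, and recomputing them gave differences of at most 0.000492. The RPKM printed above for members were instead TMM-scaled CPM per kilobase, with the tested genes as the total. They are therefore higher than the deposited values. The deposited transcript length was used for ratios per length. Versions of the authors' tools were not given in the sources used here. Columns of the authors' own comparison were not used.

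Genotypes came from the sample titles. The members and lists were chosen with earlier results of these data known. Of 31507 transcript entries, the entry with the highest summed count was kept for each of 20701 symbols, 12 members having several. No library pair held identical values. Reads carried no molecular identifiers, so depth (18916452 to 26153039 counts) limits counting error only. In R 4.3.3, edgeR 4.0.16 (filterByExpr, TMM, quasi-likelihood, genotype as the single term, Benjamini-Hochberg adjustment over 14075 genes) tested genotypes; limma 3.58.1 and DESeq2 1.42.0 gave alternatives. CPM were TMM-scaled, and log2 CPM had a prior count of 2. Correlations with Afp were tested over all orders of 8 embryos (smallest p 2.48e-05). Labels do not say whether embryos shared a litter, so p-values measure the spread between these embryos. Python 3.11.15, numpy 2.4.6, pandas 2.3.3, scipy 1.17.1 and matplotlib 3.10.9 were used. The scripts were tested on simulated data. Genes on mm9 were placed with GENCODE vM1.

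Named genes were all members, genes of the other endoderm lists called in either test, and the 10 non-members with the highest r with Afp. Marker genes whose values stand beside a result were also named. Hpx, Vtn, Gata4, Plat, Lamb1, the trophoblast genes and the epithelial genes were named after their values were seen. Some genes that met these rules are not reported here. Alternatives were another size factor, another prior count, no filter, RPKM, another transcript, DESeq2, limma, a replicate block, leaving out each embryo and, chosen after seeing the data, Afp as a covariate. Replicate numbers were not taken as pairs in the main fit, since the labels give same-numbered embryos no shared origin. Deviations of same-numbered embryos correlated at 0.109, 0.212, 0.0863 and 0.507, which cannot show whether the numbers mark pairs.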

Additional observations from a re-analysis of the deposited data

Results flagged for a closer look

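In 122 groups of 4 values, the gap of the highest or lowest embryo to its nearest neighbour was compared with the whole range. Dixon's critical value at 95% was exceeded in 2. The groups reuse the same embryos and correlated genes, so this count cannot be set against the 1 in 20 of separate tests. The 2 flags are descriptive only. The ratio of Cited1 to Afp per length was 0.484 in wild-type embryo 4, where wild-type 1, 2 and 3 had 0.159 to 0.210. The ratio of Apoa1 to Afp was 1.53 in knockout embryo 1, where knockout 2, 3 and 4 had 1.21 to 1.26. Knockout embryo 1 was thus the knockout nearest to the wild-type embryos, which had 1.60 to 1.91. Wild-type embryo 4 and knockout embryo 1 were both among the 3 with the least Afp.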

How the results depend on the processing

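No member was called between genotypes under any alternative run. The log2 fold change of 19 of the 28 members changed sign under at least 1 alternative other than the Afp covariate, and those of Afp, Apoa2, Apoa4, Fga, Fgb, Fgg, Foxa3, Rbp4 and Trf did not. Under the replicate block it was -0.067 for Apob and -0.075 for Cubn (members called 0, other endoderm genes called 0, median pairwise r 0.966), and 2 of 8 embryos correlated best with their own number. In limma on log2(RPKM + 1) it was -0.018 for Apob and -0.034 for Cubn. With log2 CPM of Afp as a covariate, chosen after seeing the data, it was -0.37 for Apob, -0.41 for Cubn and -0.016 for Lrp2. There 23 of 27 members were below 0, and the lowest adjusted p (edgeR) was 0.051, for Slc2a2. An unadjusted edgeR p under 0.05 was reached by 12 members, the share of all genes not being counted. Over all genes this fit called 311, where the main fit called 137. Afp had the highest fold change of the members and correlated with the others, so lower values follow from this choice of covariate. These signs and p-values of the members are therefore not a separate result. Leaving out single embryos gave -0.48 to 0.92 for Apob, -0.36 to 0.90 for Cubn, -0.15 to 0.26 for Lrp2 and -0.058 to 0.23 for Cldn6. It gave 0 to 23 members correlated with Afp, beside 0 to 255 of all genes called positive, where 7 embryos allow fewer orders. Between genotypes it gave 0 to 2 other endoderm genes called. Gata4 and Gata6 were both called under RLE size factors, without the filter, without wild-type 3 and by DESeq2 (2 genes each), and neither was called without wild-type 1, wild-type 4, knockout 1, knockout 2 or knockout 4 or under the block, and Gata4 alone was called without knockout 3; the cause was not tested. Median spread (1.26 to 1.74), median pairwise r (0.966 to 0.992) and mean shares moved by less than their spread. With all transcript entries as the total, shares were 0.218% and 0.288%. Depth limits Alb, Apoc1 and Foxa3.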
